A study of Arabidopsis with 12 samples.

Results

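The transcriptional response of *aph-1* seedlings to abscisic acid (ABA) was read from 6 of the 12 libraries of the series, 3 from ABA-treated *aph-1* seedlings and 3 from untreated *aph-1* seedlings. Genes were chosen by level alone, as those listed at 1 FPKM or more in either of these groups, which kept 20054 of 33559 genes and left out 13505. FPKM is a read count scaled to gene length and sequencing depth, so levels can be compared between genes. The *aph-1* line (Salk_120974) is 1 insertion line of Arabidopsis with a T-DNA in the promoter of *APH*, a low molecular weight protein tyrosine phosphatase gene, and it makes a fused transcript of T-DNA and *APH* sequence. Whole seedlings 14 days old, grown on MS-based medium with sucrose, received ABA (labelled 50 micromole) for 6 h or no treatment, and whether a mock was applied is not stated in the sources read here. The other 6 libraries are from the Col-0 wild type, 3 ABA-treated and 3 untreated, without the insertion and otherwise labelled alike.

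ABA is the plant hormone of drought, salt and cold responses and of seed maturation. It binds PYR/PYL/RCAR receptors, which then hold clade A PP2C phosphatases in check. SnRK2 kinases, released from these phosphatases, phosphorylate bZIP transcription factors of the ABF family that switch on stress genes. The hormone also slows growth, closes stomata and promotes senescence.

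The deposited table holds 1 value per gene for each group of 3 libraries. No spread between libraries, SD or test can therefore be given, and the depth behind a value is unknown. Every comparison describes these pooled values. A gene is called higher or lower where the ratio of ABA-treated to untreated *aph-1* seedlings, with 0.1 FPKM added to both values, is at least 2-fold. Log2 ratios are on that scale, which understates the change of genes with low values. In RNA from whole seedlings, fewer cells of a type and less RNA per cell cannot be told apart. *APH* (AT3G44620) itself was listed at 86.9 FPKM in ABA-treated and 83.6 FPKM in untreated *aph-1* seedlings, and a value for the gene as a whole does not check the fused transcript. Both leaf and root RNA were present in untreated *aph-1* seedlings, with the Rubisco small subunit gene *RBCS1A* (AT1G67090) at 12404 FPKM and all 8 listed root hair genes at 1 FPKM or more in at least 1 *aph-1* group.

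After ABA, 2407 genes (12.0%) were higher and 2160 (10.8%) lower in *aph-1*, while 15487 (77.2%) stayed within 2-fold. The median log2 ratio over the 20054 genes was -0.02, with quartiles of -0.49 and 0.43. The rises ran further than the falls. At least 8-fold, 550 genes were higher and 203 lower, and at least 64-fold, 96 were higher and 5 lower. Genes that were higher held 28.1% of the summed FPKM after ABA and 6.15% without it, whereas genes that were lower held 4.77% after ABA and 14.6% without it. Of the 20054 genes, 18644 were listed at 1 FPKM or more in both groups, and among these 1951 were higher and 1583 lower. A further 562 passed only through the ABA-treated group and 848 only through the untreated group, and such genes had to differ to some degree. Between means of 1 and 1000 FPKM the share that was higher grew with level, at 9.42% of genes with a mean of 1 to 10 FPKM, 12.5% at 10 to 100 FPKM and 17.4% at 100 to 1000 FPKM, while the share that was lower was 14.4%, 6.89% and 8.61% in the same ranges.

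**Figure D1:**
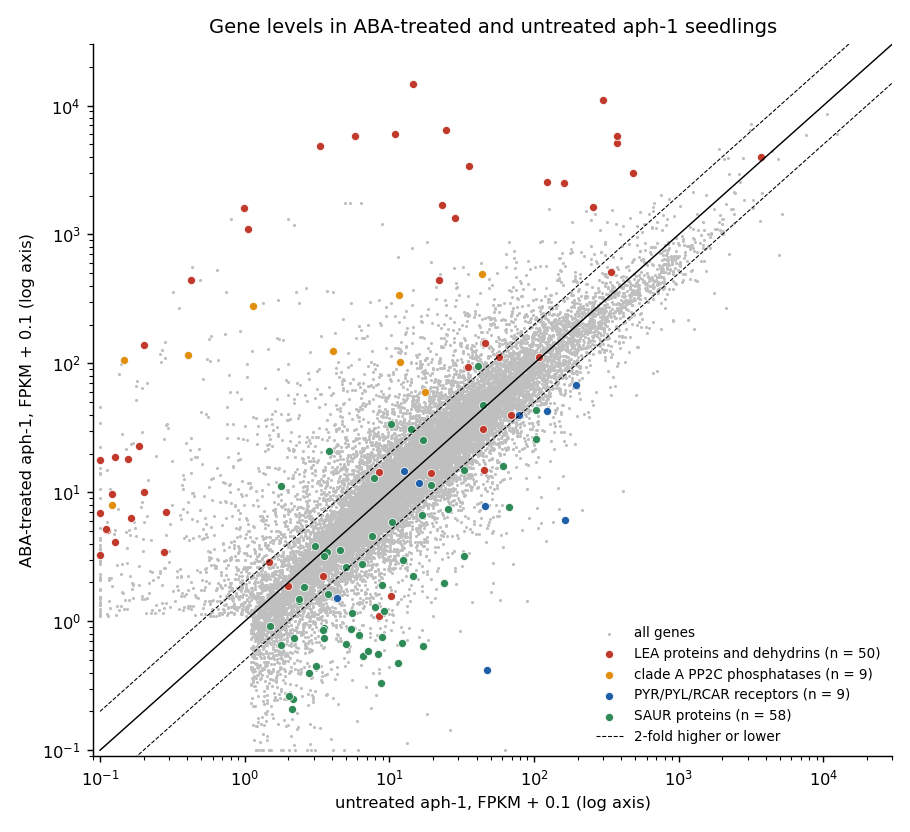
Level of each of the 20054 genes in ABA-treated *aph-1* (vertical) against untreated *aph-1* (horizontal), in FPKM with 0.1 added, on log axes; each point is 1 gene and each value the authors' pooled value of 3 libraries. All 9 PP2C genes and 36 of 50 LEA genes lie above the dashed 2-fold lines, and 38 of 58 SAUR and 6 of 9 receptor genes below them.

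The first step of ABA signalling, the receptors, was lower after ABA. Of the 14 listed PYR/PYL/RCAR receptor genes, 9 reached 1 FPKM in *aph-1*, and 6 of these were lower and none higher, with a median log2 ratio of -1.52 against -0.02 over all genes. *PYL6* (AT2G40330) was listed at 0.320 FPKM in ABA-treated and 46.9 FPKM in untreated *aph-1* seedlings. *PYL4* (AT2G38310) had 6.05 FPKM after ABA and 165 FPKM without it. *PYL5* (AT5G05440) had 7.68 and 45.9 FPKM in ABA-treated and untreated seedlings. These 3 receptors had the largest falls of the family. *PYR1* (AT4G17870), the receptor that gave the family its name, fell to 68.4 FPKM after ABA, against 195 FPKM without it. *PYL8* (AT5G53160), linked to root responses, fell to 42.8 FPKM after ABA, against 123 FPKM without it. *PYL7* (AT4G01026) and *PYL9* (AT1G01360) stayed within 2-fold, at log2 ratios of 0.20 and -0.43. Summed over the family, the 14 listed receptor genes stood at 193.9 FPKM after ABA and 688.3 FPKM without it.

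The phosphatases that the receptors inhibit went the other way. All 9 clade A PP2C genes were higher after ABA in *aph-1*. Their median log2 ratio was 4.94, and their summed level was 1626 FPKM in ABA-treated and 90.1 FPKM in untreated seedlings. Of these, *HAI3* (AT2G29380), *HAI2* (AT1G07430) and *AHG1* (AT5G51760) passed the 1 FPKM minimum only through the ABA-treated group. These 3 rose against untreated values near the floor: *HAI3* was listed at 106 FPKM after ABA and 0.0465 FPKM without it, and *HAI2* at 115 FPKM after ABA and 0.307 FPKM without it. *HAI1* (AT5G59220) had 277 FPKM after ABA and 1.03 FPKM without it. *ABI1* (AT4G26080), the phosphatase of the classical ABA-insensitive mutant, was the most abundant of the family in both groups, at 492 FPKM after ABA and 43.9 FPKM without it. The smallest rise, in *HAB2* (AT1G17550), still took it to 59.9 FPKM after ABA, against 17.5 FPKM without it.

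Most SnRK2 kinase genes had log2 ratios above 0, and 5 stayed within 2-fold. Of 10 members, all at 1 FPKM or more, 3 were higher and 2 lower after ABA in *aph-1*, and the median log2 ratio was 0.62. *SNRK2.7* (AT4G40010) showed the largest rise, with 57.4 FPKM after ABA and 3.24 FPKM without it. *SNRK2.6* (OST1, AT4G33950), the kinase of guard cell closure, rose to 66.1 FPKM after ABA, against 19.4 FPKM without it. Its 2 close relatives in ABA signalling, *SNRK2.2* (AT3G50500) and *SNRK2.3* (AT5G66880), stayed within 2-fold at log2 ratios of 0.40 and 0.36. *SNRK2.5* (AT5G63650) and *SNRK2.8* (AT1G78290) fell by 1.23 and 1.02 on the log2 scale.

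Most transcription factors of the pathway and their partners rose. Of 14 listed ABF, ABI and AFP genes, 11 reached 1 FPKM, and 9 of these were higher and none lower, with a median log2 ratio of 1.87. The AFP proteins bind and restrain the bZIP factor ABI5, and 2 of their genes rose most: *AFP1* (AT1G69260) had 219.6 FPKM after ABA and 4.66 FPKM without it, and *AFP3* (AT3G29575) had 369 FPKM after ABA and 14.5 FPKM without it. Among the ABF genes, *ABF3* (AT4G34000) had the largest log2 ratio (2.89) and *ABF1* (AT1G49720) the smallest (1.09). *ABI5* (AT2G36270), the bZIP factor of germinating seeds, was listed at 14.3 FPKM after ABA and 2.13 FPKM without it. Of the other seed regulators, *ABI3* (AT3G24650) was listed at 0.0135 FPKM after ABA and 0.0480 FPKM without it, and *ABI4* (AT2G40220) at 0 in both groups.

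Genes that make the hormone and genes that remove it were both higher. Of 9 listed ABA synthesis genes, 5 reached 1 FPKM, and 4 were higher and none lower. *NCED3* (AT3G14440), the stress-induced cleavage enzyme that limits synthesis, was listed at 10.8 FPKM after ABA and 0.463 FPKM without it. *AAO3* (AT2G27150), which makes ABA from its aldehyde, rose to 20.8 FPKM after ABA, against 4.58 FPKM without it. *ABA2* (AT1G52340), the middle enzyme of the path, stayed within 2-fold at a log2 ratio of 0.23. Of 9 listed breakdown, conjugation and transport genes, 8 reached 1 FPKM, and 5 were higher and none lower. All 4 *CYP707A* genes, which encode the hydroxylases that inactivate ABA, were higher, led by *CYP707A1* (AT4G19230) with 162 FPKM after ABA and 3.29 FPKM without it. The exporter gene *ABCG25* (AT1G71960) rose to 23.7 FPKM after ABA, against 8.29 FPKM without it, whereas the importer gene *ABCG40* (AT1G15520) stayed under 1 FPKM in both groups. Genes that release ABA from its glucose ester stayed within 2-fold, with *BGLU18* (AT1G52400) at a log2 ratio of 0.12 and *BGLU33* (AT2G32860) at -0.13.

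Genes for proteins that protect cells during drying made up many of the largest single rises. Late embryogenesis abundant (LEA) proteins and dehydrins are hydrophilic proteins that accumulate in drying seeds and stressed leaves. Of 65 listed genes, 50 reached 1 FPKM, 18 of them only after ABA, and 36 were higher and 3 lower, with a median log2 ratio of 4.82. All 65 listed genes together held 7.62% of the summed FPKM after ABA and 0.655% without it, or 84833 FPKM against 6733 FPKM. The LEA gene *AT3G02480* was listed at 14691 FPKM after ABA and 14.4 FPKM without it, the largest gain in FPKM of any gene in *aph-1*. *LEA4-5* (AT5G06760) had 1598 FPKM after ABA and 0.893 FPKM without it. Other members were high before treatment and rose less on the log scale: the dehydrin *ERD14* (AT1G76180) had 3002 FPKM after ABA and 484 FPKM without it, and *COR47* (AT1G20440) had 5815 FPKM after ABA and 375 FPKM without it. The 3 that fell were *AT5G60520*, *AT1G54890* and *AT4G38410*, at log2 ratios of -2.94, -2.69 and -1.59. *KIN1* (AT5G15960) and *KIN2* (AT5G15970) are near-identical neighbours whose reads may be shared between them, and *KIN2* showed the gain in FPKM next to the largest, with 11089 FPKM after ABA and 300.5 FPKM without it.

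Few seed genes reached 1 FPKM. Of 13 listed seed storage and oil body genes, 3 did so, each only after ABA. The LEA-type gene *EM6* (AT2G40170) had 128 FPKM after ABA and 0.170 FPKM without it, and its relative *EM1* (AT3G51810) had 10.6 FPKM after ABA and 0.0169 FPKM without it. The oil body gene *OLEO2* (AT5G40420) had 2.06 FPKM after ABA and 0.0196 FPKM without it. The storage protein genes themselves stayed below 1 FPKM, with *CRA1* (AT5G44120) at 0.208 FPKM after ABA and 0.0415 FPKM without it.

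Among the 15 genes with the largest log2 ratios in *aph-1* at 10 FPKM or more, levels after ABA ran between 98.2 and 14691 FPKM and levels without it between 0.0392 and 14.4 FPKM. Besides LEA genes and *HAI3*, they included *LTI65* (RD29B, AT5G52300), a classical ABA reporter gene, with 1315 FPKM after ABA and 0.708 FPKM without it. *TSPO* (AT2G47770), an outer membrane tryptophan-rich sensory protein, had 560.4 FPKM after ABA and 0.333 FPKM without it. Of the 15, 4 had no description, among them *AT4G33467* with 446 FPKM after ABA and 0.389 FPKM without it. For these 15 genes the untreated level was a median of 0.0725% of the ABA level in *aph-1*, with a range of 0.0399% to 0.104%, and a median of 1.04% in the wild type, with a range of 0.579% to 1.91%. Levels after ABA differed less between the genotypes, with medians of 526 FPKM in *aph-1* and 528 FPKM in the wild type. They ran between 98.2 and 14691 FPKM in *aph-1* and between 126 and 17525 FPKM in the wild type. Over the 128 genes that were at least 32-fold higher in *aph-1* and at 10 FPKM or more after ABA, the untreated level was a median of 0.553% of the ABA level in *aph-1* and 1.75% in the wild type. All 15 had a lower untreated level in *aph-1* than in untreated wild-type seedlings. Both lists were picked for a large ratio in *aph-1*, which favours low untreated values there. In a list picked for the wild-type ratio instead, chosen after seeing the data, 98 genes were at least 32-fold higher and at 10 FPKM or more after ABA in the wild type. Their untreated level was a median of 0.301% of the ABA level in *aph-1* and 1.42% in the wild type, and it was lower in *aph-1* for 96 of the 98. With pooled values this difference could not be tested, and its part in the larger ratios of *aph-1* was not tested.

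**Figure D2:**
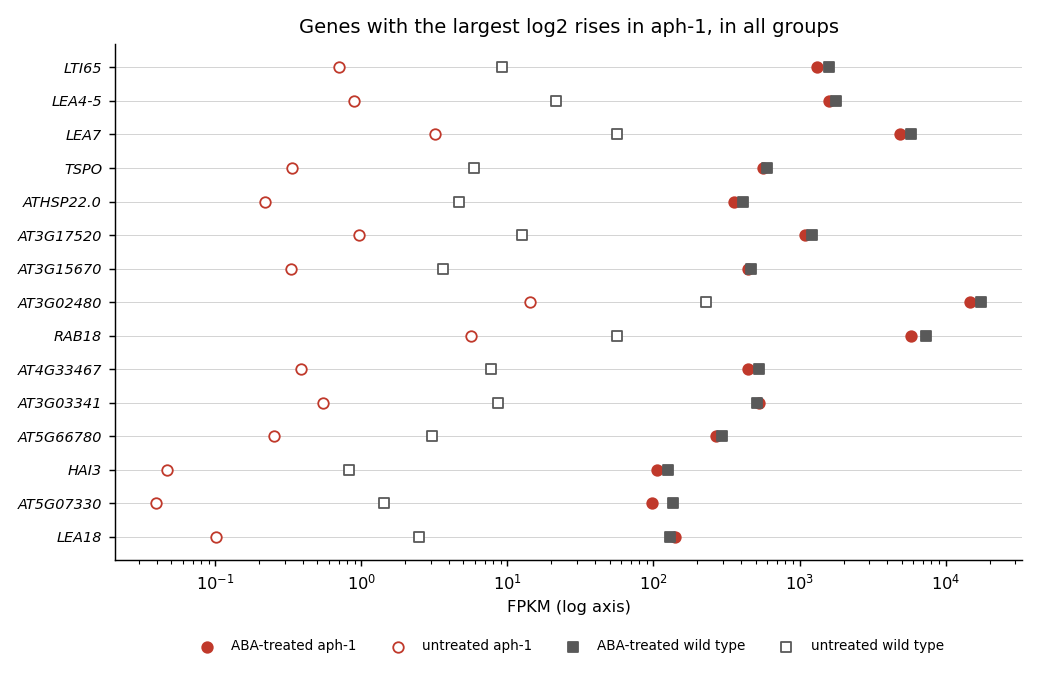
Levels in all 4 groups of the 15 genes with the largest log2 ratios in *aph-1*, in FPKM on a log axis; circles are *aph-1* and squares the wild type, filled with ABA and open without, each 1 pooled value of 3 libraries. The filled points nearly coincide, and the open circles, at 0.0392 to 14.4 FPKM, lie left of the open squares, at 0.824 to 230.1 FPKM.

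Of 62 heat shock protein genes at 1 FPKM or more (of 71 listed), 22 (35.5%) were higher and 1 lower, against 12.0% and 10.8% over all genes. Of the 62, 7 passed the minimum only through the ABA-treated group. The 7 largest rises were in small heat shock proteins. *ATHSP22.0* (AT4G10250), a small heat shock protein, had 357 FPKM after ABA and 0.220 FPKM without it. *HSP17.4* (AT3G46230) had 308 FPKM after ABA and 1.59 FPKM without it. The 1 that fell, the HSP20-like gene *AT4G21870*, had 4.08 FPKM after ABA and 121 FPKM without it. Of 15 heat shock factor genes at 1 FPKM or more, 7 were higher and 1 lower, and *HSFA6B* (AT3G22830), a factor of the class that activates heat shock genes, had 158 FPKM after ABA and 1.58 FPKM without it. Of 8 genes of proline metabolism 3 were higher and none lower. Of 9 trehalose-6-phosphate genes 2 (22.2%) were higher and 1 (11.1%) lower, which is about 1 gene from the shares over all genes, 12.0% and 10.8%. *P5CS1* (AT2G39800), the entry enzyme of proline synthesis, rose to 239 FPKM after ABA, against 24.7 FPKM without it, while the proline dehydrogenase *ERD5* (AT3G30775) stayed at 109 FPKM after ABA and 102 FPKM without it. For raffinose family sugars, 4 of 8 genes were higher and 2 lower. The galactinol synthases *GOLS4* (AT1G60470), *GOLS2* (AT1G56600) and *GOLS1* (AT2G47180) were higher at log2 ratios of 4.95, 4.46 and 2.94, and the cold-linked member *GOLS3* (AT1G09350) was lower at -1.35. Of 51 glutathione S-transferase genes at 1 FPKM or more, 18 were higher and 3 lower. *GSTU9* (AT5G62480) reached 199.9 FPKM after ABA, against 8.66 FPKM without it, and *GSTF14* (AT1G49860) fell to 0.743 FPKM after ABA, against 30.7 FPKM without it.

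Genes for barrier lipids were higher as a group. Suberin is the waxy polyester of root endodermis and wounded tissue, and all 13 listed genes for its synthesis, export and control were higher in ABA-treated *aph-1*, at a median log2 ratio of 2.42. The regulator *MYB41* (AT4G28110) had 26.1 FPKM after ABA and 0.657 FPKM without it. *KCS2* (AT1G04220), which elongates fatty acids for suberin, had 193 FPKM after ABA and 6.09 FPKM without it. *GPAT5* (AT3G11430), an acyltransferase of suberin monomers, had 37.7 FPKM after ABA and 2.23 FPKM without it. The exporter genes *ABCG6* (AT5G13580), *ABCG2* (AT2G37360) and *ABCG20* (AT3G53510) rose with them, at log2 ratios of 4.10, 1.68 and 1.39. Of the 7 cuticular wax genes at 1 FPKM or more (of 8 listed), 6 were higher. *CER1* (AT1G02205), which makes alkanes, had 232 FPKM after ABA and 9.44 FPKM without it, and its regulator *MYB96* (AT5G62470) had 82.5 FPKM after ABA and 8.57 FPKM without it. *CER4* (AT4G33790), which makes primary alcohols, stayed within 2-fold, at 1.93 FPKM after ABA and 3.37 FPKM without it. The larger lipid transfer and 2S albumin superfamily was split, with 16 higher and 17 lower of 66 genes. *LTP4* (AT5G59310) stood at 1751 FPKM after ABA and 5.27 FPKM without it, and its close homologue *LTP3* (AT5G59320), which may share its reads, at 1739 FPKM after ABA and 6.31 FPKM without it. *EARLI1* (AT4G12480), a cold-responsive member, fell to 267 FPKM after ABA, against 2123 FPKM without it.

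**Figure D3:**
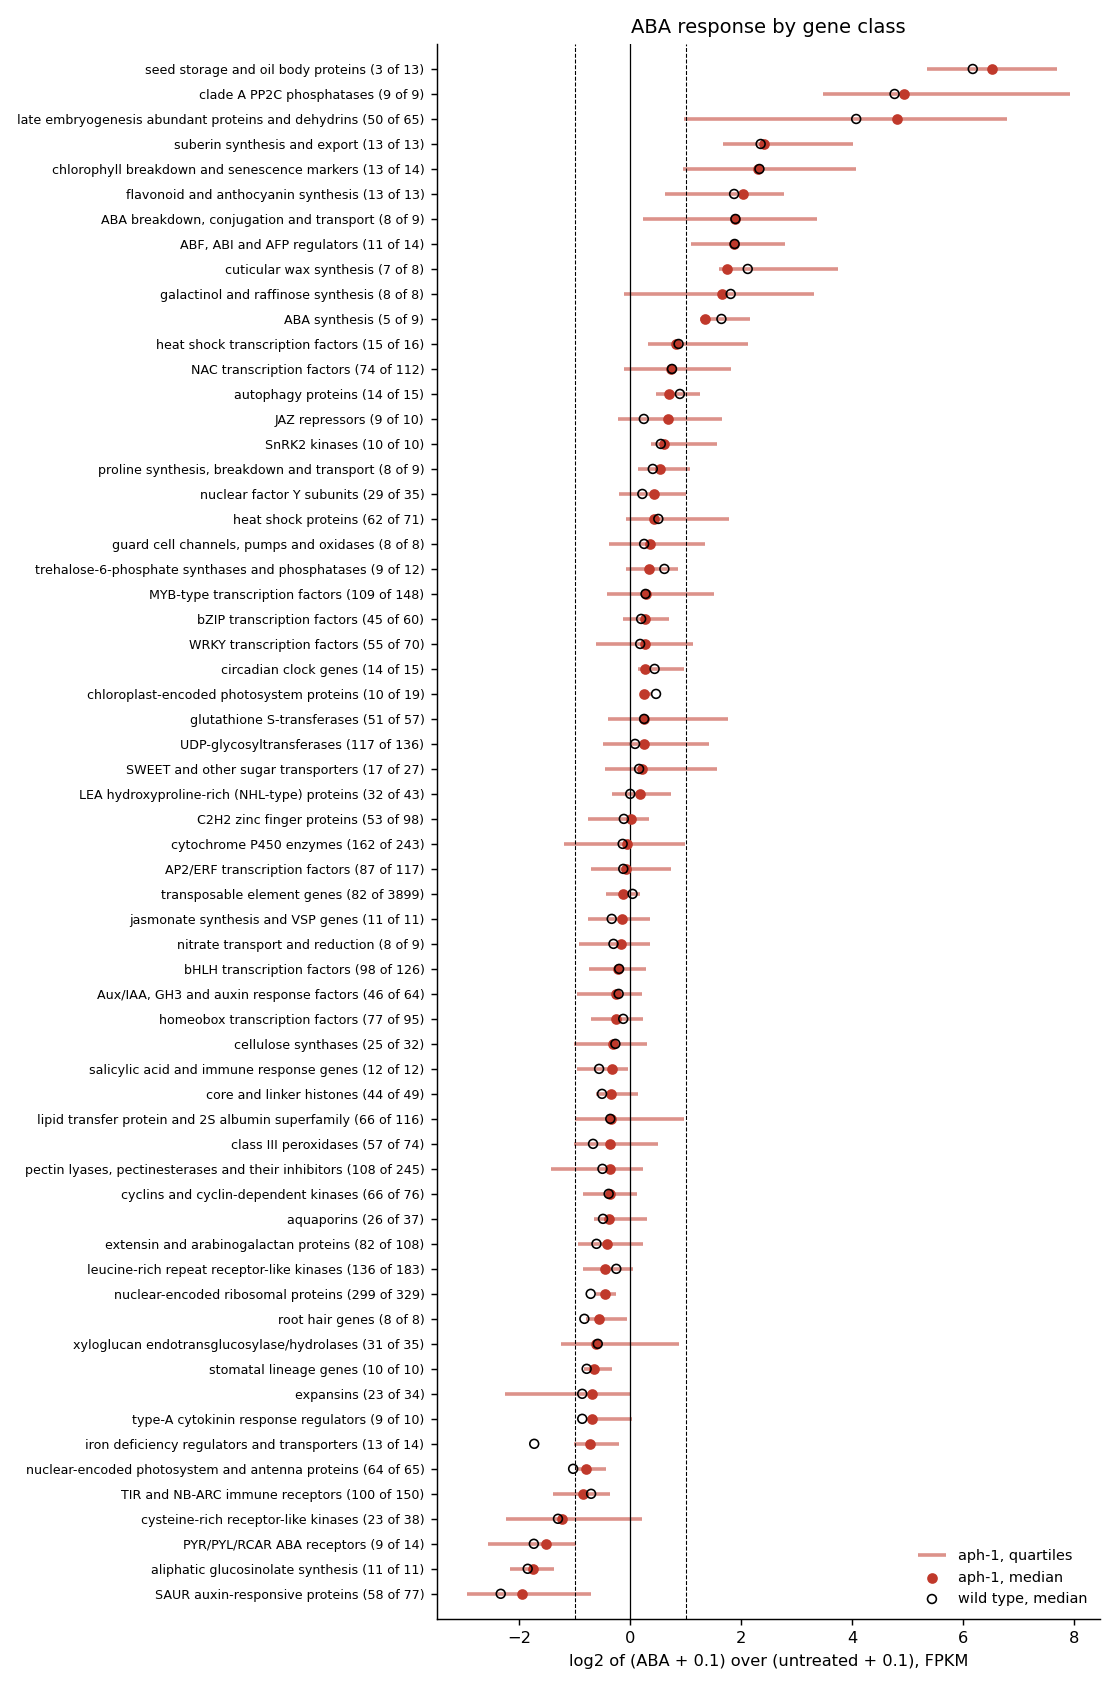
Median log2 ratio of ABA-treated to untreated seedlings for 62 gene classes in *aph-1* (filled points, with quartiles as bars) and in the wild type (open points), over genes with at least 1 FPKM in *aph-1*, each named with how many of its listed genes that is. Medians of 11 classes were at 1 or above and of 4 at -1 or below, with SAUR genes lowest at -1.96; the top value, 6.51, rests on 3 seed genes that reached 1 FPKM only after ABA.

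Apart from the heat shock factors, with 46.7% of genes higher, 9 transcription factor families were counted, and NAC genes had the largest share of higher genes among these 9. Of 74 NAC genes at 1 FPKM or more (of 112 listed), 29 were higher and 7 lower, or 39.2% and 9.46% against 12.0% and 10.8% over all genes. Of the 74, 7 passed the minimum only through the untreated group and 1 only through the ABA-treated group. *NAC019* (AT1G52890), a drought-induced factor, had 153 FPKM after ABA and 1.74 FPKM without it. *RD26* (AT4G27410), known from dehydration responses, had 310.3 FPKM after ABA and 8.42 FPKM without it. *SMB* (AT1G79580), the root cap factor, was among the lower ones, with 0.675 FPKM after ABA and 1.95 FPKM without it. MYB-type genes had 34 higher and 19 lower of 109, and 16 of them passed the minimum only after ABA. *MYB2* (AT2G47190), an ABA-responsive activator, was listed at 25.7 FPKM after ABA and 0.176 FPKM without it, and *MYB60* (AT1G08810), a guard cell factor for stomatal opening, fell to 4.80 FPKM after ABA, against 18.9 FPKM without it. Homeobox genes had a median log2 ratio of -0.26, with 13 higher and 10 lower of 77, and the 2 largest log2 ratios belonged to related HD-Zip genes. *HB-7* (AT2G46680) had 781 FPKM after ABA and 14.2 FPKM without it, and *HB-12* (AT3G61890) had 293 FPKM after ABA and 10.2 FPKM without it.

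WRKY genes had 15 (27.3%) higher and 8 (14.5%) lower of 55, and AP2/ERF genes 17 (19.5%) higher and 13 (14.9%) lower of 87. Only through the ABA-treated group did 3 of the WRKY and 6 of the AP2/ERF genes pass the minimum. Another 5 and 4 passed only through the untreated group. The bZIP genes had 8 higher (17.8%) and 6 lower (13.3%) of 45, and the C2H2 zinc finger genes 6 higher (11.3%) and 8 lower (15.1%) of 53. The bZIP and C2H2 shares of higher genes lay nearer the 12.0% over all genes than the WRKY and AP2/ERF shares, as did that of the homeobox genes. *WRKY75* (AT5G13080), a factor of senescence and phosphate starvation, had 31.0 FPKM after ABA and 3.56 FPKM without it. *RAP2.6* (AT1G43160), a stress-responsive ERF, had 188 FPKM after ABA and 13.2 FPKM without it, whereas *ORA59* (AT1G06160), the ERF that joins jasmonate and ethylene defence, fell to 3.08 FPKM after ABA, against 25.1 FPKM without it. The bHLH family had the smallest share of higher genes of these 9 families, 8 higher (8.16%) and 18 lower (18.4%) of 98. Of these 98 genes, 9 passed the minimum only through the untreated group and 1 only through the ABA-treated group. *HBI1* (AT2G18300), a growth-promoting bHLH factor, fell to 3.25 FPKM after ABA, against 26.9 FPKM without it. *NF-YA5* (AT1G54160), a drought-induced subunit of nuclear factor Y, rose to 24.5 FPKM after ABA, against 2.57 FPKM without it, and 8 of 29 nuclear factor Y genes were higher and 2 lower.

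**Figure D4:**
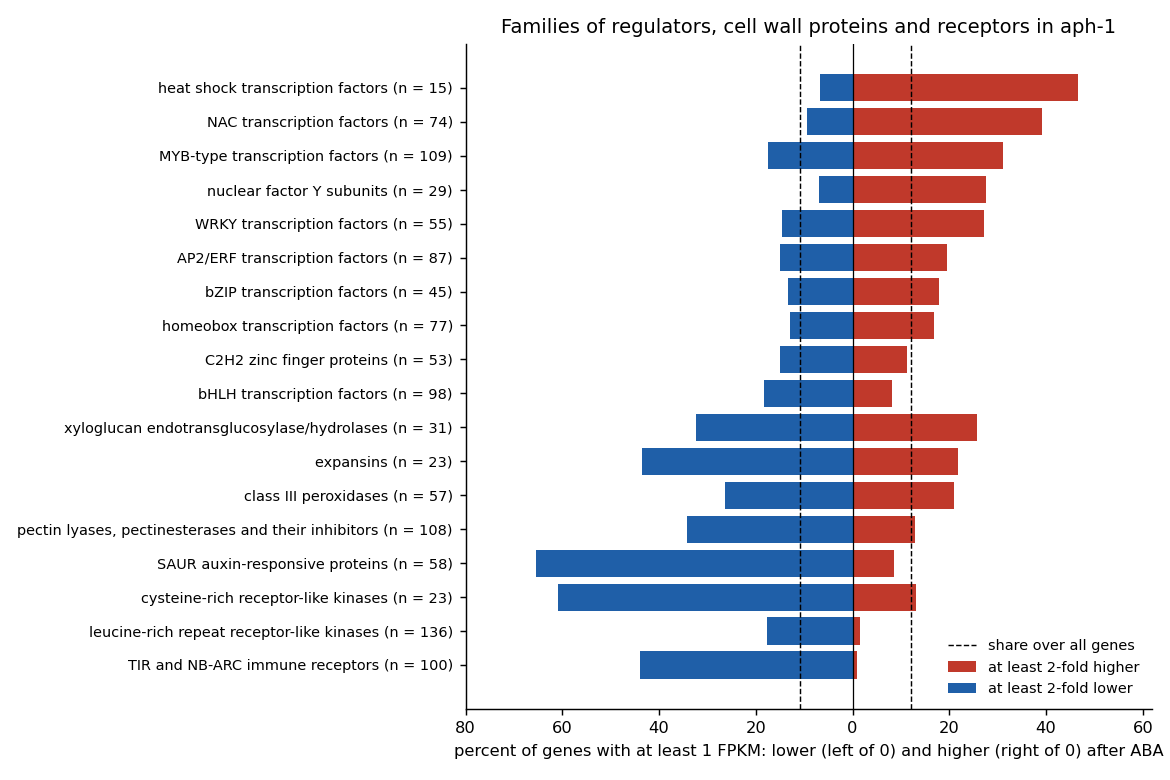
Share of genes at least 2-fold higher (right of 0) and lower (left of 0) in ABA-treated over untreated *aph-1* for families of transcription factors, cell wall proteins and receptors, as a percentage of genes with at least 1 FPKM; dashed lines mark the shares over all genes, 12.0% higher and 10.8% lower. NAC genes reached 39.2% higher, and SAUR genes 65.5% and immune receptor genes 44.0% lower.

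Most photosynthesis genes were lower by less than 2-fold. Of 64 nuclear-encoded photosystem and antenna genes at 1 FPKM or more (of 65 listed), 13 were lower and 1 higher after ABA in *aph-1*, and the median log2 ratio was -0.79. All 65 listed genes together held 4.44% of the summed FPKM after ABA and 7.09% without it. The falls past 2-fold included subunits of the NDH complex, such as *PnsL3* (AT3G01440) with 16.6 FPKM after ABA and 88.0 FPKM without it, and its linker antenna *Lhca6* (AT1G19150) with 20.7 FPKM after ABA and 78.3 FPKM without it. The 3 largest losses in FPKM were of Rubisco small subunit genes, which are outside this class. *RBCS1A* showed the largest loss of any gene, with 6025 FPKM after ABA and 12404 FPKM without it. *RBCS2B* (AT5G38420), a similar copy that may share reads, had 689.9 FPKM after ABA and 4961 FPKM without it. The Rubisco activase gene *RCA* (AT2G39730) fell to 353 FPKM after ABA, against 1752 FPKM without it, and the carbonic anhydrase gene *CA1* (AT3G01500) to 184 FPKM after ABA, against 1268 FPKM without it. Chloroplast-encoded photosystem genes were listed at few FPKM, at 103.1 FPKM in sum after ABA and 66.1 FPKM without it.

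Genes of chlorophyll breakdown and leaf senescence were higher, 9 of the 13 at 1 FPKM or more (of 14 listed) and none lower, with quartiles of the log2 ratio at 0.95 and 4.07. *NYE1* (SGR1, AT4G22920), which removes magnesium from chlorophyll, rose to 56.5 FPKM after ABA, against 9.82 FPKM without it. *PAO* (AT3G44880), the oxygenase that opens the ring, rose to 265 FPKM after ABA, against 53.6 FPKM without it. *NYC1* (AT4G13250), which reduces chlorophyll b, rose to 309 FPKM after ABA, against 111 FPKM without it. The late senescence protease *SAG12* (AT5G45890) remained at the floor, at 0.0114 FPKM after ABA and listed at 0 without it. *SAG29* (SWEET15, AT5G13170), a sugar transporter of senescing leaves and seed coats, was listed at 1319 FPKM after ABA and 1.90 FPKM without it. Of 14 autophagy genes at 1 FPKM or more, 5 were higher and none lower, among them *ATG8E* (AT2G45170), which coats autophagosomes, with 254 FPKM after ABA and 94.8 FPKM without it.

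The auxin-responsive SAUR genes were mainly lower. The SAUR family encodes small auxin-induced proteins, many of which promote cell elongation. Of 58 SAUR genes at 1 FPKM or more (of 77 listed), 38 (65.5%) were lower and 5 (8.62%) higher, against 10.8% and 12.0% over all genes, and 22 of the 58 passed only through the untreated group. The family's median log2 ratio, -1.96, was the lowest of the 62 classes. *AT1G29430* had 0.539 FPKM after ABA and 17.0 FPKM without it, and *SAUR63* (AT1G29440) had 0.573 FPKM after ABA and 12.0 FPKM without it. A few went the other way, led by *AT4G12410* with 11.2 FPKM after ABA and 1.69 FPKM without it. Among auxin signalling genes, 11 of 46 were lower, 6 higher and 29 within 2-fold, with *IAA19* (AT3G15540), an auxin-induced repressor of hypocotyl growth responses, at 3.40 FPKM after ABA and 16.2 FPKM without it.

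Genes for wall-modifying proteins moved in both directions. Of 23 expansin genes at 1 FPKM or more, 10 (43.5%) were lower and 5 (21.7%) higher, against 10.8% and 12.0% over all genes. Of the 23, 3 passed the minimum only through the untreated group. *EXPA8* (AT2G40610) was listed at 0.0426 FPKM after ABA and 26.0 FPKM without it, while *EXPA16* (AT3G55500) rose to 182 FPKM after ABA, against 6.26 FPKM without it. The family's summed level was 797.9 FPKM after ABA and 778.8 FPKM without it, a small difference beside those of its members. Xyloglucan endotransglucosylase genes were 10 (32.3%) lower and 8 (25.8%) higher of 31. *XTH31* (AT3G44990) fell to 7.23 FPKM after ABA, against 213 FPKM without it, and *XTH24* (AT4G30270) rose to 881 FPKM after ABA, against 109 FPKM without it. Pectin lyase, pectinesterase and inhibitor genes had 37 lower and 14 higher of 108, and class III peroxidase genes 15 lower and 12 higher of 57. Extensin and arabinogalactan protein genes had 19 lower and 9 higher of 82, and root hair genes 2 lower and none higher of 8. Cellulose synthase and related genes were 7 (28.0%) lower and 3 (12.0%) higher of 25, the latter at the share over all genes. Of the 25, 4 passed the minimum only through the untreated group and 1 only through the ABA-treated group. *CSLG2* (AT4G24000), a cellulose synthase-like gene among the higher ones, had 105 FPKM after ABA and 0.475 FPKM without it. Of 26 aquaporin genes at 1 FPKM or more, 3 (11.5%) were lower and 2 (7.69%) higher, near or below the shares over all genes, and *NLM1* (AT4G19030) fell to 9.71 FPKM after ABA, against 50.9 FPKM without it.

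Ribosomal protein genes lay mostly below 0 on the log2 scale but seldom passed 2-fold. Of 299 nuclear-encoded ribosomal protein genes at 1 FPKM or more, 5 (1.67%) were lower and 7 (2.34%) higher, against 10.8% and 12.0% over all genes. The quartiles of their log2 ratio, -0.61 and -0.25, were nevertheless both below 0. The summed level of all 329 listed genes was 72454 FPKM after ABA and 105061 FPKM without it. Cyclin and cyclin-dependent kinase genes were 11 (16.7%) lower and 1 higher of 66, with quartiles of the log2 ratio at -0.84 and 0.12. Among the lower ones was *CYCD3;3* (AT3G50070), a D-type cyclin, with 10.7 FPKM after ABA and 27.6 FPKM without it. No core or linker histone gene of 44 was lower, and 3 (6.82%) were higher, below the 12.0% over all genes. Of the 44, 2 passed the minimum only through the ABA-treated group. Among the 3 higher genes, the drought-induced linker histone *HIS1-3* (AT2G18050) had 73.8 FPKM after ABA and 4.72 FPKM without it. All 10 genes of the stomatal lineage had log2 ratios below 0, but only 1 (10%) was past 2-fold, near the 10.8% over all genes. *SPCH* (AT5G53210), the factor that starts the lineage, had 5.59 FPKM after ABA and 8.75 FPKM without it. Of 8 guard cell genes, the outward potassium channel *GORK* (AT5G37500) and the anion channel *ALMT12* (AT4G17970) rose at log2 ratios of 2.48 and 1.83, and the anion channel *SLAC1* (AT1G12480) stayed within 2-fold at -0.23. The NADPH oxidase genes of the guard cell list diverged: *RBOHF* (AT1G64060) rose to 14.1 FPKM after ABA, against 6.14 FPKM without it, and *RBOHD* (AT5G47910) fell to 6.28 FPKM after ABA, against 24.7 FPKM without it.

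Nutrient genes were set beside the shares over all genes, 10.8% lower and 12.0% higher. Of 13 iron deficiency genes at 1 FPKM or more (of 14 listed), 4 (30.8%) were lower and 1 (7.69%) higher in *aph-1*. *IRT1* (AT4G19690), the root iron importer, was listed at 0.113 FPKM after ABA and 7.38 FPKM without it. The iron store *FER1* (AT5G01600) rose to 659.9 FPKM after ABA, against 151 FPKM without it. Of 8 nitrate transport and reduction genes 2 were lower and 1 higher. The nitrate reductases *NIA1* (AT1G77760) and *NIA2* (AT1G37130) fell by 1.49 and 1.55 on the log2 scale, and *NRT1.8* (AT4G21680), which unloads nitrate from the xylem, rose to 53.5 FPKM after ABA, against 9.47 FPKM without it. Among sugar transporters, 7 of 17 were higher and 2 lower, with *SWEET4* (AT3G28007) at 106 FPKM after ABA and 0.557 FPKM without it.

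Specialised metabolism split by pathway. Aliphatic glucosinolates are methionine-derived defence compounds. Of their 11 synthesis genes, 9 (81.8%) were lower and none higher, against 10.8% and 12.0% over all genes, with a median log2 ratio of -1.75. *BCAT4* (AT3G19710), the first enzyme of methionine chain elongation, fell to 21.5 FPKM after ABA, against 138 FPKM without it. Its regulator *MYB28* (AT5G61420) fell to 17.8 FPKM after ABA, against 55.7 FPKM without it. *CYP79F1* (AT1G16410) and *SOT17* (AT1G18590) stayed within 2-fold, at log2 ratios of -0.59 and -0.97. Flavonoid genes rose instead, 8 of 13 (61.5%) higher and 1 (7.69%) lower, including those of anthocyanin synthesis. The anthocyanin regulator *MYB90* (PAP2, AT1G66390) had 208 FPKM after ABA and 11.5 FPKM without it, and its target *DFR* (AT5G42800), the entry to anthocyanins, had 169 FPKM after ABA and 24.6 FPKM without it. The first enzyme, *CHS* (AT5G13930), stayed within 2-fold at 336 FPKM after ABA and 234 FPKM without it, and the flavonol regulator *MYB111* (AT5G49330) fell by 1.15 on the log2 scale. Cytochrome P450 genes were 39 (24.1%) higher and 48 (29.6%) lower of 162. UDP-glycosyltransferase genes were 33 (28.2%) higher and 16 (13.7%) lower of 117, the latter near the 10.8% over all genes. Only through the ABA-treated group did 14 of these P450 genes pass the minimum, and 20 only through the untreated group. For the glycosyltransferase genes these numbers were 5 and 11. In the glycosyltransferase family, *UGT72E2* (AT5G66690) and *UGT72E1* (AT3G50740), which glucosylate lignin precursors, fell by 3.14 and 4.72 on the log2 scale.

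Among receptor and defence genes, calls of lower outnumbered calls of higher in 4 of 5 classes, although most genes stayed within 2-fold in each but the cysteine-rich kinases. Of 100 TIR and NB-ARC immune receptor genes at 1 FPKM or more (of 150 listed), 44 (44.0%) were lower and 1 (1%) higher. Over all genes, 10.8% were lower and 12.0% higher. The median log2 ratio of these immune receptor genes was -0.85, and 22 of the 100 passed only through the untreated group. The 1 that was higher, *RPS2* (AT4G26090), which recognises a bacterial effector, had 10.3 FPKM after ABA and 1.85 FPKM without it. *RPP4* (AT4G16860), a resistance gene against downy mildew, fell to 2.69 FPKM after ABA, against 13.7 FPKM without it. Of 23 cysteine-rich receptor-like kinase genes, 14 were lower and 3 higher, 5 passed only through the untreated group, and *CRK30* (AT4G11460) was listed at 0.0136 FPKM after ABA and 13.2 FPKM without it. Leucine-rich repeat receptor-like kinase genes were 24 (17.6%) lower and 2 higher of 136, and 19 of the 136 passed only through the untreated group. Of the higher ones, 1 was *HAE* (AT4G28490), the receptor of floral organ shedding, at 11.8 FPKM after ABA and 2.64 FPKM without it. Salicylic acid genes had 3 lower and none higher of 12. The pair *EDS1* (AT3G48090) and *PAD4* (AT3G52430), which act downstream of immune receptors, fell by 1.03 and 1.27 on the log2 scale, and the defence marker *PR1* (AT2G14610) stayed within 2-fold at -0.21. The NHL-type proteins, LEA-like by description and linked to defence, were 6 (18.8%) higher and 3 (9.38%) lower of 32, the latter near the 10.8% over all genes.

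Other hormone classes and the clock were set beside the shares over all genes, 12.0% higher and 10.8% lower. Of 9 JAZ repressor genes of jasmonate signalling at 1 FPKM or more, 4 (44.4%) were higher and 1 lower. Jasmonate synthesis and storage genes were 2 higher and 2 lower of 11 (18.2% each). The wound-induced storage gene *VSP2* (AT5G24770) had 275 FPKM after ABA and 9.34 FPKM without it. The synthesis genes *AOC1* (AT3G25760) and *AOC2* (AT3G25770), similar copies, fell by 1.91 and 1.08 on the log2 scale. Type-A cytokinin response regulators, which report cytokinin signalling, were 1 higher and 1 lower of 9 (11.1% each), near the shares over all genes. Their median log2 ratio was -0.69. Clock genes were 4 (28.6%) higher and none lower of 14, among them the morning factor *CCA1* (AT2G46830) with 5.55 FPKM after ABA and 1.54 FPKM without it. The hour of harvest of each group is not stated in the labels, and its part in these values was not tested. Transposable element genes rarely reached 1 FPKM, 82 of 3899, and 4 of these (4.88%) were higher and 9 (11.0%) lower.

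The 62 classes held 492 of the 2407 higher genes and 486 of the 2160 lower genes. A count over whole descriptions, without any list, took the 204 descriptions shared by 10 or more of the 20054 genes. In 3 of them the median log2 ratio was at least 1: a LEA protein description (7 of 10 genes higher, median 6.22), ABC-2 type transporters (10 of 18 higher, median 1.30) and calcium-dependent phosphotriesterases (6 of 11 higher, median 1.17). In 4 it was -1 or less: SAUR-like proteins, the DUF642 proteins of the cell wall (8 of 10 lower, median -1.47), DUF241 proteins (7 of 11 lower, median -1.15) and the TIR-NBS-LRR disease resistance description (21 of 40 lower, median -1.08). Another 2528 genes had no description, and 310 of these (12.3%) were higher and 283 (11.2%) lower, close to the shares over all genes.

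Set beside the wild type over the same 20054 genes, where 2338 (11.7%) were higher and 2555 (12.7%) lower, the direction of the *aph-1* response was largely shared. In both genotypes, 2095 genes were higher, or 87.0% of the *aph-1* genes and 89.6% of the wild-type genes, and 1882 were lower, or 87.1% and 73.7%. Genes past 2-fold in 1 genotype alone had medians of the same sign in the other. The 306 that were higher in *aph-1* alone had median log2 ratios of 1.14 in *aph-1* and 0.86 in the wild type. The 667 that were lower in the wild type alone had medians of -0.80 in *aph-1* and -1.15 in the wild type. The 7 genes past 2-fold in opposite directions included *NRPB12* (AT5G41010), a subunit of RNA polymerases, with 19.2 FPKM after ABA and 9.36 FPKM without it in *aph-1*, and listed at 0 after ABA and at 27.2 FPKM without it in the wild type. Its call in the wild type rests on that value of 0, which could not be checked without values per library.

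Class medians in *aph-1* and the wild type differed by over 0.5 in 2 of the 62 classes. For LEA and dehydrin genes the median was 4.82 in *aph-1* and 4.07 in the wild type. For iron deficiency genes it was -0.72 in *aph-1* and -1.73 in the wild type, where 7 were lower, with *BHLH100* (AT2G41240), an iron deficiency bHLH factor, at log2 ratios of -0.97 in *aph-1* and -3.03 in the wild type. Among lowered classes of abundant genes, 13 of 64 photosystem and antenna genes were lower in *aph-1* and 33 in the wild type, and 5 of 299 ribosomal protein genes were lower in *aph-1* and 40 in the wild type. Their medians were nearer together than these counts, -0.79 in *aph-1* and -1.03 in the wild type for photosystem genes, and -0.46 in *aph-1* and -0.71 in the wild type for ribosomal genes. With 1 pooled value per group, none of these differences between genotypes could be tested.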

How the data were processed

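Total RNA of whole seedlings was sequenced as 12 libraries, 3 per group. By the study's methods, reads were trimmed with Trimmomatic, aligned with HISAT and counted with htseq-count, and the processing notes name TAIR10 and HTSeq. The deposited table's own label names Cuffdiff, and how the 3 libraries were combined was not given in the sources used here. Values deposited by the authors were taken as FPKM from the column sums and decimals, because no header names the unit. The table also holds the authors' log2 ratios and yes or no calls for 4 comparisons, which were not used.

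Log2 ratios were computed with 0.1 FPKM added, over genes with at least 1 FPKM in either *aph-1* group, and 2-fold set the calls (Python 3.11.15, numpy 2.4.6, pandas 2.3.3, matplotlib 3.10.9). The counting was tested on simulated data. Depth and replicate error are unknown, so no test or interval was computed. The 62 gene classes were set by the descriptions in the table or by gene identifiers. Classes and lists were chosen with earlier results of these data known, and wrongly captured descriptions were removed after first counts had been seen. Named genes were the 15 largest rises and falls in log2 ratio (10 FPKM or more) and in FPKM, the 4 largest each way in a class by description, any member of a class by identifier, *APH* and genes the study names. Other names follow counts of 5 or fewer. Alternatives were another added value, minimum level, centring or fold. Gene symbols came from RefSeq, which matched 32815 of 33559 identifiers.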

Additional observations from a re-analysis of the deposited data

How the results depend on the processing

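No paired analysis was possible because the table holds 1 pooled value per group. For the same reason no fit with the replicate number as a block and no leave-one-out was run. Shares of promoters with a motif, and the shorter window planned for them, were not run because no promoter sequences were at hand. With a 3-fold threshold, the fold of the study's methods, 1403 genes were higher and 963 lower in *aph-1*, and 1197 were higher and 857 lower in both genotypes. With a 4-fold threshold, 1032 were higher and 574 lower in *aph-1*, and 874 were higher and 506 lower in both genotypes. With a minimum of 5 FPKM, 1423 genes were lower. These counts follow from the stricter limits. The other settings left the counts of higher and lower genes within 1.5 times. With 1 FPKM added in place of 0.1, 42 of 595 named genes were no longer past 2-fold, and centring on the median took 3 below it. With 0.01 FPKM added 8 named genes came past 2-fold, and with nothing added 6 did. Of 62 class medians, 1 fell below 2-fold with 1 FPKM added, 1 without a minimum level and 1 at the 5 FPKM minimum, where 3 others came past it. No named gene and no class median turned its direction under these settings. Of 124 class counts, 24 moved by over 1.5 times with 1 FPKM added and 27 at the 5 FPKM minimum. For the 20 genes listed at 0 in ABA-treated and the 55 in untreated *aph-1*, the size of the ratio depends on the added value.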
